A study of Mus musculus with 36 samples.

Results

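Hippocampal gene expression of 5 Braf-cko mice was set against that of 6 Braf-flox littermates, all males aged 4 months. The comparison covered 12 of the 36 hippocampal arrays and 11 of the 23 animals of the study. Its members were chosen by the sample titles, and 1 Braf-cko mouse with 2 technical arrays was counted once, as the mean of both. Braf-cko mice were homozygous for a Braf allele with loxP sites and carried a CamkIIa-Cre transgene, which is active after birth in the principal neurons of the forebrain. Braf-flox mice were homozygous for the same allele without Cre, so that both groups carried the floxed allele and differed in the transgene as well as in the deletion. The strain was a mixed background of 93.7% C57BL/6J, 6.2% FVB and 0.1% 129/Sv. The other 24 arrays came from 6 CamkII-Cre mice and 6 wt mice of the C57BL/6J strain, aged 6 months. The whole hippocampus was used, which holds interneurons, glia and vessels beside the neurons in which Cre is active. In such a sample, fewer cells of a type and less RNA per cell cannot be told apart.

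BRAF is a kinase that passes signals from Ras on to MEK and ERK. In neurons the ERK pathway is turned on by synaptic activity and growth factors, and ERK and the kinases it activates phosphorylate transcription factors such as ELK1 and CREB1. Many ERK-responsive genes encode transcription factors, secreted proteins and regulators of the cytoskeleton. The values below are log2 of the deposited normalized intensities. Each change is given as Braf-cko minus Braf-flox with its standard error (SE). The brighter 23316 of 46632 probes by mean signal were tested with limma, and 17076 of these had a gene symbol and stood for 11393 named genes. Over all tested probes, 124 passed an adjusted p of 0.05, which is 0.532%, with 87 lower (0.373%) and 37 higher (0.159%) in Braf-cko mice. They included 61 lower (0.535%) and 26 higher (0.228%) named genes, where a gene counts if any of its tested probes passed, or 0.764% of the named genes tested in all. Leaving out 1 animal gave 49 to 82 named genes (39 lower and 10 higher without Braf-cko replicate 4, the lowest count), and the methods' t-test with the same adjustment 16 (12 lower, 4 higher). Of these 87 genes, 44 are described here, 30 lower and 14 higher. The other 43, among them neuropeptides, ERK feedback genes, circadian genes and genes of dendrite growth, are only counted.

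Library facts bear on all of these values. Array medians ran at 52.3 to 53.3 intensity units in Braf-cko mice and 51.8 to 53.2 in Braf-flox mice, and animals correlated at 0.983 to 0.992 over the tested probes. The single Braf probe lay below the filter on signal and read 5.37 to 5.66 in Braf-cko and 5.45 to 5.76 in Braf-flox mice. Its place relative to the deleted exon is not given in the sources used here, and it cannot check the genotypes. None of the genes on 9 lists of cell type markers passed. The list of excitatory neuron markers, with the glutamate transporter gene Slc17a7, also holds general neuronal genes such as Snap25, Syt1, Syn1 and Rbfox3. It gave a summed intensity of 89474 to 92808 in Braf-cko mice and 81890 to 90409 in Braf-flox mice. This sum does not stand for excitatory neurons alone. The summed intensity of 12 interneuron markers was 13918 to 15599 in Braf-cko mice and 15751 to 19605 in Braf-flox mice, and that of 13 endothelial and mural cell markers 6049 to 7014 in Braf-cko mice and 7234 to 7866 in Braf-flox mice. Neither of these sums overlapped between the groups. Of their members, 8 of 12 and 8 of 13 lay below zero in log2 change, against 51.6% of all named genes. A linear sum follows its bright and most changed members, such as Pvalb (-0.48, limma adjusted p = 0.362) and Ly6c1 (-0.48, adjusted p = 0.111). Other members went up, such as Calb2 (0.07) among the interneuron and Kdr (0.11) among the endothelial markers. Astrocyte markers summed to 31450 to 34693 in Braf-cko mice and 34221 to 37871 in Braf-flox mice, with 10 of 13 members below zero. Choroid plexus markers summed to 547 to 2088 in Braf-cko mice and 456 to 17508 in Braf-flox mice, where the highest value belonged to replicate 6 alone and the next was 1645. Without this animal, 67 named genes passed, and 25 of the 44 genes did. The part of these other cell types in the results was not tested.

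**Figure D1:**
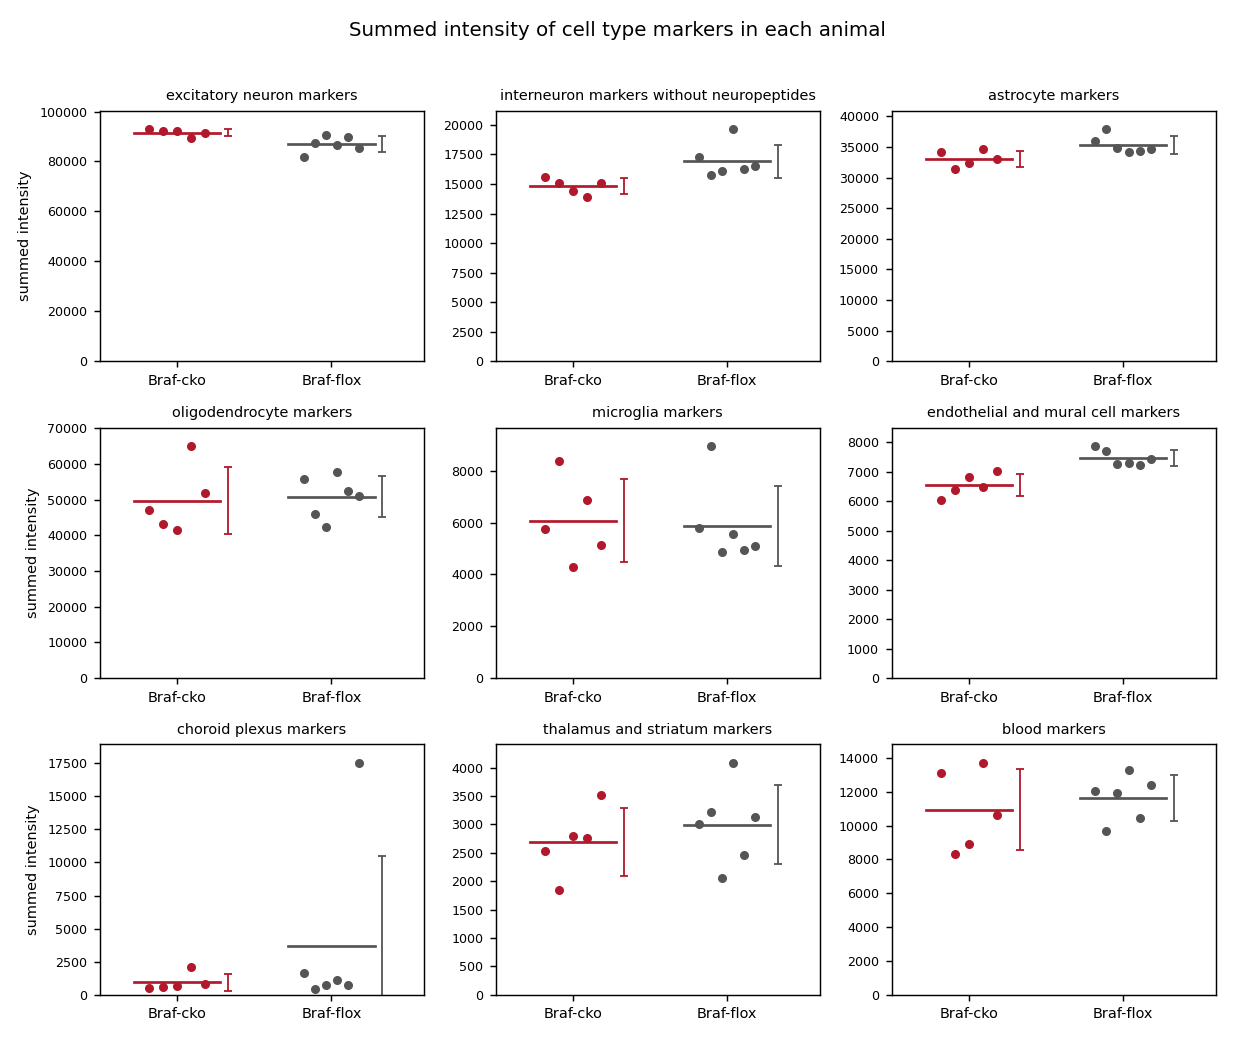
Summed linear intensity of the marker genes of 9 cell types in each animal (points), with the group mean (line) and SD (bar), for 5 Braf-cko and 6 Braf-flox mice. The excitatory neuron list also holds general neuronal genes. Interneuron sums (13918 to 15599 in Braf-cko, 15751 to 19605 in Braf-flox mice) and endothelial and mural cell sums (6049 to 7014 in Braf-cko, 7234 to 7866 in Braf-flox mice) did not overlap between the groups, and 1 Braf-flox animal reached 17508 for choroid plexus markers.

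Promoter windows of 5 lower genes are shown because the study asked which lower genes carry sites of ERK-dependent transcription factors. The 5 were picked for holding a motif, and the windows of Igfbp4 and Stac, which were lower as well, hold none of those searched. Each window runs over 300 bases, 250 before to 50 after a transcription start in the RefSeq annotation of GRCm38.p6, 5′ to 3′ on the strand of the gene, with capitals for the motifs TGACG (the core of a cAMP response element, the site of CREB1), CCGGAAG (an ETS core, the kind of site ELK1 binds) and GCGGGGGCG or GCGTGGGCG (sites of EGR proteins) on either strand. A full cAMP response element, TGACGTCA, holds TGACG on both strands.
Csrnp1: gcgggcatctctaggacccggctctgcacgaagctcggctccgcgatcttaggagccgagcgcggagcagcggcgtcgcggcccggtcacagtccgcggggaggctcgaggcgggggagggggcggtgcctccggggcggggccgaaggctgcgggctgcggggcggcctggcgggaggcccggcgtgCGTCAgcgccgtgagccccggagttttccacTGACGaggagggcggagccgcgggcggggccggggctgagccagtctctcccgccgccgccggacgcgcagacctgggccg
Midn: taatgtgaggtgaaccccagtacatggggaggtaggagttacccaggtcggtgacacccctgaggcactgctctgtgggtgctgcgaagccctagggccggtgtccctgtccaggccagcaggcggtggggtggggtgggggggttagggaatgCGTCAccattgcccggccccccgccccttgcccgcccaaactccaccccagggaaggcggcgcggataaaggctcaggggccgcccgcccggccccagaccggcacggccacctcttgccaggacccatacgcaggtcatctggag
Plpp6: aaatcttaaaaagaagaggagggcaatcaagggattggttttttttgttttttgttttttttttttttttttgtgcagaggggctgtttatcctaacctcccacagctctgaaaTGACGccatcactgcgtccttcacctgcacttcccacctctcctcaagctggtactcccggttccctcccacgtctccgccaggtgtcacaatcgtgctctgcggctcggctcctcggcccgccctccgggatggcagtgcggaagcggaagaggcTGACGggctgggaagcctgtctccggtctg
Tnfrsf12a: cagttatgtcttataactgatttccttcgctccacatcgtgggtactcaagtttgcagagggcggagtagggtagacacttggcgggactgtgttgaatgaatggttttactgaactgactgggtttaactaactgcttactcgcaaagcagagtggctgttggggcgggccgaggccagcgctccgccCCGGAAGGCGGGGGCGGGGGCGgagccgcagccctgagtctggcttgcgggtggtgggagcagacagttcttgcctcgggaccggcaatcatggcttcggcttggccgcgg
Zyx: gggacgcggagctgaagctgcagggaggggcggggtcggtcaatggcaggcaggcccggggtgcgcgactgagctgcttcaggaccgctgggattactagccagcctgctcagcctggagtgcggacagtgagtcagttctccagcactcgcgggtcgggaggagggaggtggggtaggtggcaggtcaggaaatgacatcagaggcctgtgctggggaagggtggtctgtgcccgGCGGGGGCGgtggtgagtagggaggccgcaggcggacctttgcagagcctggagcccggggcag
The windows lie at chr9:119983730-119984029, minus strand (Csrnp1, 1 of several starts), at chr10:80148022-80148321, plus strand (Midn, 1 of 2 starts, the other with none of these motifs), at chr19:28963670-28963969, plus strand (Plpp6), at chr17:23677400-23677699, minus strand (Tnfrsf12a) and at chr6:42349578-42349877, plus strand (Zyx). The Csrnp1 and Plpp6 windows hold TGACG 2 times each and the Midn window once, the Zyx window holds GCGGGGGCG once, and in the Tnfrsf12a window CCGGAAG runs into 2 overlapping copies of GCGGGGGCG. RefSeq windows matched 38 of the 61 lower and 22 of the 26 higher named genes. TGACG was in a window of 13 of the 38 lower genes (34.2%), of 5 of the 22 higher genes (22.7%) and of 6228 of all 27025 genes with a window (23%). Of the 13, Csrnp1, Mast4, Midn, Plpp6 and Zranb3 are described here, and the others are among the genes only counted. The 34.2% therefore does not stand for the described genes. CCGGAAG was in windows of 5 lower genes (13.2%), 1 higher gene (4.55%) and 9.93% of all genes, and GCGGGGGCG in those of 3 lower genes (7.89%), 1 higher gene (4.55%) and 3.31% of all genes. TGACGTCA was found for 1 lower gene and no higher gene, against 2.03% of all genes, and GCGTGGGCG for none of these lower or higher genes, against 0.707% of all genes. These matches describe letters in a window and not binding.

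The 44 genes were chosen by this contrast, so their agreement between animals describes the choice and supports nothing. All lay on 1 side of the Braf-flox mean in 5 of 5 Braf-cko mice, and for 40 of them the 2 groups did not overlap, beside 402 of all tested probes (1.72%). The log2 change ran down to -1.10 (Ubr1) and up to 0.63 (Rflnb), and the smallest in size was 0.31 (Btg1). When each of the 11 animals was left out in turn, 12 of the 44 genes passed in all 11 fits, and all 12 were lower in Braf-cko mice. They were Efcab6, Midn, Csrnp1, Tnfrsf12a, Zranb3, Igfbp4, Stac, Masp1, Zyx, Ptges3l, Plpp6 and Pramel12. The other 32 lost the call in at least 1 fit, and 3 of them (Btg1, Syn2 and Septin6) in every fit. The methods' t-test with Benjamini-Hochberg adjustment called 7 of the 44, and of the 12 only Efcab6, Igfbp4, Plpp6 and Pramel12. With the replicate number as a block, Ptges3l, Plpp6 and Pramel12 missed the threshold (limma adjusted p = 0.0634, 0.0514 and 0.0945). Stac entered the test only through its level in Braf-flox mice. The Braf-cko mean was also low for Efcab6 (6.01), Ptges3l (5.95), Acot5 (5.92) and Ubr1 (5.72), and the Braf-flox mean for 8030474K03Rik (5.84). The lowest mean of a tested probe was 5.70, so the sizes of these changes are those of probes near the floor of signal. The 44 genes lie on 17 chromosomes, with at most 5 on 1 of them. Their signal was above that of most probes, with a median of 8.33 for the lower and 7.91 for the higher genes, against 7.07 for all tested probes. The 12 genes are plotted by animal.

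**Figure D2:**
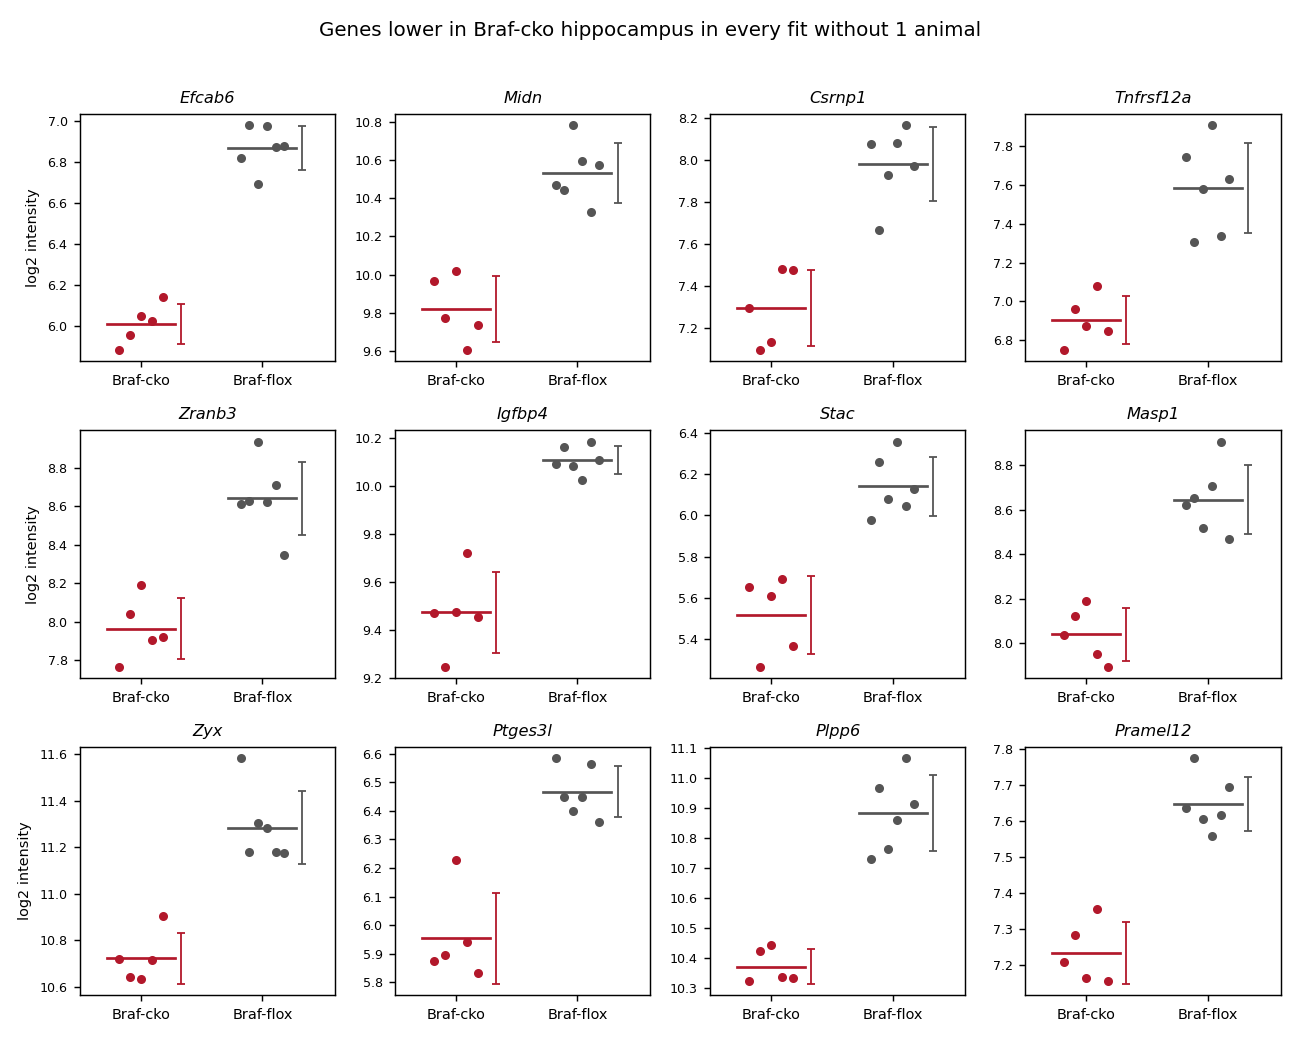
Log2 intensity in each of 5 Braf-cko and 6 Braf-flox mice (points) for the 12 genes that passed in every fit without 1 animal, with the group mean (line) and SD (bar); the vertical axes are cut to the range of each gene. All 12 were lower in Braf-cko mice, and the groups do not overlap in any panel.

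Enzymes of lipid metabolism included 3 lower genes and 1 higher gene. Plpp6, a phosphatase of presqualene and other isoprenoid diphosphates, read 10.32, 10.43, 10.44, 10.34 and 10.33 in the 5 Braf-cko mice, against 10.73, 10.89 and 11.06 (lowest, median and highest) in the 6 Braf-flox mice. All 5 Braf-cko mice lay below all 6 Braf-flox mice, and the Braf-cko values lay close together. The log2 change was -0.51 (SE 0.07, limma adjusted p = 0.00444), and a dimmer Plpp6 probe changed by -0.52 (SE 0.09, adjusted p = 0.0118). Lypla2, which removes palmitate from proteins, read 11.96, 12.06, 11.84, 11.99 and 12.07 in the 5 Braf-cko mice, against 12.25, 12.36 and 12.45 (lowest, median and highest) in the 6 Braf-flox mice, again with no overlap. Its change was -0.38 (SE 0.07, limma adjusted p = 0.0184), and it passed in 8 of the 11 fits (adjusted p up to 0.0634, without Braf-cko replicate 1). Acot5, an acyl-CoA thioesterase of peroxisomes, averaged 5.92 ± 0.06 in Braf-cko mice and 6.39 ± 0.19 in Braf-flox mice (SD, n = 5 and 6), a change of -0.47 (SE 0.09, limma adjusted p = 0.0268). It belongs to a cluster of closely related Acot genes, which the probe may not tell apart, and passed in 4 of the 11 fits (adjusted p up to 0.0762, without Braf-cko replicate 4). Dgat2, which makes triglycerides in the last step of their synthesis, was higher, with 11.55 ± 0.12 in Braf-cko mice and 11.20 ± 0.09 in Braf-flox mice, a change of 0.35 (SE 0.07, limma adjusted p = 0.0477), but passed in only 1 of the 11 fits (adjusted p up to 0.12, without Braf-cko replicate 4). On the lists around these enzymes, 1 of 37 genes of phospholipid synthesis and remodelling was lower and none higher, 1 of 27 phospholipase and endocannabinoid genes was lower and none higher, and 1 of 37 genes of fatty acid and triglyceride metabolism was higher and none lower. None of 39 cholesterol and sterol transport genes and none of 34 sphingolipid genes passed. Over all named genes tested 0.764% passed, so that lists this short hold few called genes or none at that share. The list counts here and below are therefore no result about a pathway.

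Of the 44 genes, 6 lower and 2 higher ones act on actin, cell adhesion or small GTPases. Zyx, a LIM protein of focal adhesions and actin bundles, read 10.72, 10.64, 10.63, 10.71 and 10.90 in the 5 Braf-cko mice, against 11.18, 11.23 and 11.58 (lowest, median and highest) in the 6 Braf-flox mice. The groups did not overlap, and Braf-flox replicate 1 lay above the other controls. The change was -0.56 (SE 0.08, limma adjusted p = 0.00674). Tns1, which links integrins to actin, averaged 7.80 ± 0.15 in Braf-cko mice and 8.19 ± 0.09 in Braf-flox mice (SD, n = 5 and 6), a change of -0.39 (SE 0.08, limma adjusted p = 0.0419), and passed in 2 of the 11 fits (adjusted p up to 0.128, without Braf-cko replicate 1). Both are on the list of focal adhesion and actin cross-linking proteins, where 2 of 44 tested genes were lower, none was higher and the median change was -0.03, against -0.0042 over all named genes. Elmo2, a partner of the DOCK proteins that activate Rac, averaged 8.32 ± 0.10 in Braf-cko mice and 8.71 ± 0.11 in Braf-flox mice, a change of -0.39 (SE 0.07, limma adjusted p = 0.0268), and passed in 6 of the 11 fits (adjusted p up to 0.0922, without Braf-cko replicate 1). Spata13, an exchange factor for Rac1 and Cdc42, moved the other way and read 9.47, 9.88, 9.67, 9.87 and 9.41 in the 5 Braf-cko mice, against 8.84, 9.09 and 9.35 (lowest, median and highest) in the 6 Braf-flox mice. Its lowest Braf-cko animals lay just above the highest Braf-flox animal, and its change was 0.58 (SE 0.11, limma adjusted p = 0.0241), which passed in 5 of the 11 fits (adjusted p up to 0.0805, without Braf-cko replicate 4).

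Further members of this group act on Arf GTPases, septin filaments, microtubules and filamin. Asap2, an Arf GAP of focal adhesions, averaged 9.01 ± 0.20 in Braf-cko mice and 9.52 ± 0.13 in Braf-flox mice (SD, n = 5 and 6), a change of -0.50 (SE 0.10, limma adjusted p = 0.0296), and passed in 4 of the 11 fits (adjusted p up to 0.0868, without Braf-cko replicate 3). A dimmer Asap2 probe changed by -0.10 (SE 0.07, adjusted p = 0.699) and did not pass. Septin6, a subunit of septin filaments, averaged 10.44 ± 0.19 in Braf-cko mice and 10.86 ± 0.09 in Braf-flox mice, with a change of -0.42 (SE 0.09, limma adjusted p = 0.0476), and passed in 0 of the 11 fits (adjusted p up to 0.114, without Braf-cko replicate 1), against -0.14 (SE 0.10, adjusted p = 0.669) at a dimmer probe. Mast4, a microtubule-associated kinase, read 8.07, 8.30, 7.99, 8.11 and 7.97 in the 5 Braf-cko mice, against 8.27, 8.61 and 8.80 (lowest, median and highest) in the 6 Braf-flox mice, so that 1 Braf-cko animal reached into the range of the controls. Its change was -0.50 (SE 0.10, limma adjusted p = 0.0306), with -0.39 (SE 0.09, adjusted p = 0.0639) at a brighter and -0.03 (SE 0.10, adjusted p = 0.948) at a dimmer probe, and it passed in 3 of the 11 fits (adjusted p up to 0.0922, without Braf-cko replicate 1). Rflnb, a partner of filamin in the organization of actin, was the most increased of the 44 genes and read 7.91, 7.96, 8.37, 7.80 and 8.06 in the 5 Braf-cko mice, against 7.07, 7.34 and 7.70 (lowest, median and highest) in the 6 Braf-flox mice. The groups did not overlap, with a change of 0.63 (SE 0.13, limma adjusted p = 0.0412), and the call held in 2 of the 11 fits (adjusted p up to 0.102, without Braf-cko replicate 3), against 0.37 (SE 0.10, adjusted p = 0.175) at a dimmer probe.

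Calcium handling, ion channels and transport gave 6 lower genes, and 1 higher gene, the receptor gene Oprl1, is given with them. Efcab6, a protein with EF-hand calcium-binding motifs, had the smallest adjusted p of the 44 genes and stood at 55.1% of the Braf-flox level on the linear scale. It read 5.88, 5.95, 6.04, 6.02 and 6.14 in the 5 Braf-cko mice, against 6.69, 6.87 and 6.98 (lowest, median and highest) in the 6 Braf-flox mice. The Braf-cko values lay near the floor of signal, so that the percentage need not be the share of transcript left. The groups were separated by more than the span of either, and the change was -0.86 (SE 0.07, limma adjusted p = 8.67e-05). Stac, an adaptor protein of the family that binds L-type calcium channels, read 5.65, 5.26, 5.61, 5.69 and 5.36 in the 5 Braf-cko mice, against 5.98, 6.10 and 6.36 (lowest, median and highest) in the 6 Braf-flox mice. All 5 Braf-cko values lay below 5.70, the lowest mean of a tested probe, so that Stac entered the test only through its level in Braf-flox mice, and it also passed with all probes tested. The size of its change, -0.63 (SE 0.10, limma adjusted p = 0.00693), is that of a probe near the floor of signal in Braf-cko mice. Ryr1, the calcium release channel of the endoplasmic reticulum best known from muscle, read 6.76, 6.88, 7.40, 6.87 and 6.92 in the 5 Braf-cko mice, against 7.39, 7.60 and 7.89 (lowest, median and highest) in the 6 Braf-flox mice. Braf-cko replicate 3 lay apart from the other mutants and reached the lowest control. The change was -0.67 (SE 0.12, limma adjusted p = 0.02) at this probe and -0.56 (SE 0.18, adjusted p = 0.253) at a slightly brighter one that did not pass, and the call held in 8 of the 11 fits (adjusted p up to 0.0724, without Braf-cko replicate 1). Ryr1 was the only gene to pass among 29 genes of phospholipase C and intracellular calcium release.

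The neuronal channels, the carrier and the receptor were less firmly called. Scn1a, the sodium channel Nav1.1, which is prominent in inhibitory interneurons, averaged 8.11 ± 0.10 in Braf-cko mice and 8.52 ± 0.15 in Braf-flox mice (SD, n = 5 and 6), a change of -0.41 (SE 0.08, limma adjusted p = 0.0429), and passed in 2 of the 11 fits (adjusted p up to 0.134, without Braf-cko replicate 1). The summed interneuron markers were lower in the same animals, as given above, and their part in this value was not tested. Pex5l, also called TRIP8b, sets the surface level of the HCN pacemaker channels. Its probe with the call averaged 7.40 ± 0.20 in Braf-cko mice and 7.91 ± 0.17 in Braf-flox mice, a change of -0.51 (SE 0.10, limma adjusted p = 0.0443) that held in 2 of the 11 fits (adjusted p up to 0.12, without Braf-cko replicate 4), with overlap of the groups, whereas its brightest probe changed by 0.04 (SE 0.21, adjusted p = 0.98) and its dimmest by -0.39 (SE 0.14, adjusted p = 0.309). No HCN, chloride or TRP channel gene passed beside it on a list of 38 tested genes. Slc38a5, a glutamine transporter, read 7.25, 7.68, 7.76, 7.55 and 7.96 in the 5 Braf-cko mice, against 8.05, 8.25 and 8.40 (lowest, median and highest) in the 6 Braf-flox mice. The groups did not overlap, and the change was -0.60 (SE 0.11, limma adjusted p = 0.023), which passed in 7 of the 11 fits (adjusted p up to 0.0746, without Braf-cko replicate 4). Slc38a5 is also known from brain vessels, whose summed markers were lower in the same animals, and their part in this value was not tested. It was the only gene to pass of 46 genes of amino acid transport and glutamate metabolism. Oprl1, the receptor for nociceptin, was higher and averaged 8.93 ± 0.07 in Braf-cko mice and 8.60 ± 0.06 in Braf-flox mice, a change of 0.33 (SE 0.06, limma adjusted p = 0.024), and passed in 5 of the 11 fits (adjusted p up to 0.0922, without Braf-cko replicate 1). A dimmer Oprl1 probe changed by 0.12 (SE 0.10, adjusted p = 0.731) and did not pass.

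Genes of transcription and DNA went both ways, 3 lower and 3 higher. Csrnp1, a nuclear transcription activator, read 7.29, 7.09, 7.13, 7.48 and 7.47 in the 5 Braf-cko mice, against 7.67, 8.02 and 8.17 (lowest, median and highest) in the 6 Braf-flox mice. The groups did not overlap, and the change was -0.68 (SE 0.10, limma adjusted p = 0.00529), or 62.2% of the Braf-flox level. Egr3, an immediate early zinc finger factor, read 11.05, 11.11, 11.05, 10.95 and 11.05 in the 5 Braf-cko mice, against 11.16, 11.51 and 11.62 (lowest, median and highest) in the 6 Braf-flox mice at its bright probe. All Braf-cko animals lay below the controls, with a change of -0.42 (SE 0.09, limma adjusted p = 0.0429) that passed in 1 of the 11 fits (adjusted p up to 0.118, without Braf-cko replicate 4), against -0.02 (SE 0.09, adjusted p = 0.972) at a dimmer probe. Zranb3, a DNA translocase that restarts stalled replication forks, read 7.76, 8.04, 8.19, 7.91 and 7.92 in the 5 Braf-cko mice, against 8.35, 8.62 and 8.94 (lowest, median and highest) in the 6 Braf-flox mice. No animal of 1 group reached the other, and the change was -0.68 (SE 0.10, limma adjusted p = 0.00551). The higher genes were Mbd4, a glycosylase that repairs mismatches at methylated CpG sites, Cdca7l, a MYC partner, and Btg1, which holds back cell division. Mbd4 averaged 7.54 ± 0.16 in Braf-cko mice and 7.12 ± 0.13 in Braf-flox mice (SD, n = 5 and 6), a change of 0.42 (SE 0.09, limma adjusted p = 0.0476), and passed in 1 of the 11 fits (adjusted p up to 0.128, without Braf-cko replicate 1). Cdca7l averaged 6.94 ± 0.13 in Braf-cko mice and 6.53 ± 0.08 in Braf-flox mice, a change of 0.41 (SE 0.07, limma adjusted p = 0.0205), and passed in 8 of the 11 fits (adjusted p up to 0.0636, without Braf-cko replicate 3). Btg1 averaged 9.89 ± 0.08 in Braf-cko mice and 9.58 ± 0.07 in Braf-flox mice, a change of 0.31 (SE 0.06, limma adjusted p = 0.0461), and passed in 0 of the 11 fits (adjusted p up to 0.119, without Braf-cko replicate 4), with 0.39 (SE 0.09, adjusted p = 0.0833) at a brighter probe. Of 68 genes of DNA replication and repair, 1 was lower and 2 were higher, and of 71 chromatin genes only Mbd4 passed.

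Ubiquitin and kinase regulators held 3 lower genes and 1 higher gene. Midn, or midnolin, carries nuclear proteins, immediate early transcription factors among them, to the proteasome. It read 9.97, 9.78, 10.02, 9.61 and 9.73 in the 5 Braf-cko mice, against 10.33, 10.52 and 10.78 (lowest, median and highest) in the 6 Braf-flox mice. The groups did not overlap, and the change was -0.71 (SE 0.09, limma adjusted p = 0.00282), so that the level was 61.1% of that in Braf-flox mice. Trib2, a pseudokinase that brings proteins to a ubiquitin ligase, read 7.84, 7.99, 8.06, 7.79 and 8.14 in the 5 Braf-cko mice, against 8.16, 8.72 and 8.83 (lowest, median and highest) in the 6 Braf-flox mice. The highest Braf-cko animal lay just below the lowest control, with a change of -0.66 (SE 0.12, limma adjusted p = 0.0183) that passed in 9 of the 11 fits (adjusted p up to 0.0639, without Braf-cko replicate 1), against -0.06 (SE 0.07, adjusted p = 0.809) at a dimmer probe. Ubr1, a ubiquitin ligase that recognizes protein N-termini, had the largest change of the 44 genes, but at a dim probe that read 5.64, 5.74, 5.74, 5.91 and 5.59 in the 5 Braf-cko mice, against 5.70, 6.93 and 7.42 (lowest, median and highest) in the 6 Braf-flox mice. Braf-flox replicate 1, at 5.70, fell within the Braf-cko range, and the other controls lay above it. The change was -1.10 (SE 0.23, limma adjusted p = 0.0478) at this probe and 0.10 (SE 0.08, adjusted p = 0.719) at the brightest of 3 Ubr1 probes, with -0.04 (SE 0.09, adjusted p = 0.93) at the dimmest, and the call held in 1 of the 11 fits (adjusted p up to 0.133, without Braf-cko replicate 1). Hectd3, another ubiquitin ligase, was higher at a dim probe with 6.89 ± 0.07 in Braf-cko mice and 6.57 ± 0.08 in Braf-flox mice (SD, n = 5 and 6), a change of 0.33 (SE 0.06, limma adjusted p = 0.036), against 0.01 (SE 0.07, adjusted p = 0.975) at its brightest probe, and passed in 2 of the 11 fits (adjusted p up to 0.124, without Braf-cko replicate 1). On the list of ubiquitin conjugation, which does not hold Trib2, Ubr1 or Hectd3, Midn passed of 95 tested genes. None of 38 proteasome subunits did, beside 0.764% of all named genes tested.

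Secreted and surface proteins included 5 lower and 2 higher genes. Igfbp4, which binds insulin-like growth factors and keeps them from their receptor, read 9.47, 9.25, 9.47, 9.72 and 9.45 in the 5 Braf-cko mice, against 10.02, 10.10 and 10.18 (lowest, median and highest) in the 6 Braf-flox mice. The controls lay close together, and all Braf-cko animals lay below them. The change was -0.63 (SE 0.08, limma adjusted p = 0.00246), with -0.61 (SE 0.10, adjusted p = 0.0102) at a further probe. Tnfrsf12a, the receptor of the cytokine TWEAK, read 6.75, 6.96, 6.87, 7.08 and 6.85 in the 5 Braf-cko mice, against 7.31, 7.60 and 7.91 (lowest, median and highest) in the 6 Braf-flox mice, with no overlap and a change of -0.68 (SE 0.11, limma adjusted p = 0.00807). It was the only one of 57 genes of chemokines, cytokines and TNF receptors to pass. Masp1, a protease of the lectin pathway of complement whose gene also gives other protein forms, read 8.04, 8.12, 8.19, 7.95 and 7.89 in the 5 Braf-cko mice, against 8.47, 8.64 and 8.91 (lowest, median and highest) in the 6 Braf-flox mice at the probe with the call. That probe changed by -0.60 (SE 0.09, limma adjusted p = 0.00444) with no overlap, while a brighter Masp1 probe changed by 0.02 (SE 0.09, adjusted p = 0.974), so that the probes of this gene disagreed. No other of 24 tested complement and coagulation genes passed.

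Fjx1, a secreted protein known from the fly gene four-jointed, read 8.96, 8.86, 9.03, 8.87 and 9.06 in the 5 Braf-cko mice, against 9.30, 9.54 and 10.11 (lowest, median and highest) in the 6 Braf-flox mice. Its groups did not overlap although the controls spread widely, and the change was -0.69 (SE 0.14, limma adjusted p = 0.0382), against -0.26 (SE 0.08, adjusted p = 0.257) at a brighter probe. It passed in 4 of the 11 fits (adjusted p up to 0.103, without Braf-cko replicate 4). Dcbld1, a transmembrane protein, averaged 8.99 ± 0.14 in Braf-cko mice and 9.38 ± 0.07 in Braf-flox mice (SD, n = 5 and 6), a change of -0.39 (SE 0.07, limma adjusted p = 0.0278), and passed in 3 of the 11 fits (adjusted p up to 0.0815, without Braf-cko replicate 4), against -0.27 (SE 0.07, adjusted p = 0.155) at a dimmer probe. Smoc2, a matrix protein of the SPARC family, was higher and read 9.65, 9.90, 9.57, 9.93 and 9.40 in the 5 Braf-cko mice, against 8.75, 9.16 and 9.33 (lowest, median and highest) in the 6 Braf-flox mice. The lowest mutant lay just above the highest control, with a change of 0.56 (SE 0.12, limma adjusted p = 0.0453) that passed in 1 of the 11 fits (adjusted p up to 0.124, without Braf-cko replicate 4). Ece2, a metalloprotease that processes neuropeptides, was higher with 7.53 ± 0.14 in Braf-cko mice and 7.08 ± 0.17 in Braf-flox mice, a change of 0.45 (SE 0.09, limma adjusted p = 0.0443), against 0.00 (SE 0.08, adjusted p = 1) at a dimmer probe, and passed in 2 of the 11 fits (adjusted p up to 0.128, without Braf-cko replicate 1). Of 29 tested genes of the SPARC family and secreted matrix modifiers, Fjx1 was lower and Smoc2 was higher, and of 45 proteoglycan genes 1 was higher and none was lower.

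Ehd1, Magi3 and Syn2, with roles at the synapse or in membrane traffic, were higher in Braf-cko mice, while Pex5l, which is also on the list of endocytosis and recycling, was lower, as given with the channels. Ehd1, which sends receptors back to the surface from recycling endosomes, read 8.13, 8.41, 8.46, 8.44 and 8.42 in the 5 Braf-cko mice, against 7.82, 7.96 and 8.06 (lowest, median and highest) in the 6 Braf-flox mice. Braf-cko replicate 1 was the lowest mutant and still above every control, with a change of 0.42 (SE 0.07, limma adjusted p = 0.0179) that held in 8 of the 11 fits (adjusted p up to 0.0585, without Braf-cko replicate 4). Magi3, a scaffold with PDZ domains, averaged 9.61 ± 0.13 in Braf-cko mice and 9.24 ± 0.10 in Braf-flox mice (SD, n = 5 and 6), a change of 0.37 (SE 0.08, limma adjusted p = 0.0461), and passed in 1 of the 11 fits (adjusted p up to 0.143, without Braf-cko replicate 1). Its dimmer probes changed by 0.14 (SE 0.07, adjusted p = 0.525) and 0.12 (SE 0.08, adjusted p = 0.615) and did not pass. Syn2, a protein of synaptic vesicles, was called at a dim probe with 7.75 ± 0.13 in Braf-cko mice and 7.38 ± 0.10 in Braf-flox mice and a change of 0.37 (SE 0.08, limma adjusted p = 0.0448), which passed in 0 of the 11 fits (adjusted p up to 0.14, without Braf-cko replicate 1). Its brightest probe, at a mean of 12.66, changed by 0.01 (SE 0.08, adjusted p = 0.981). Of 54 tested postsynaptic scaffold genes only Magi3 passed, while 37 of the 54 lay below zero at their brightest probe and the median change was -0.07, the lowest of the 44 functional lists. Of 67 genes of endocytosis and recycling, Pex5l was lower and Ehd1 was higher, and none of 61 Rab genes passed.

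The other 5 genes fall under none of these roles. Pramel12, a member of a large family of related genes that the probe may not tell apart, read 7.21, 7.28, 7.17, 7.36 and 7.16 in the 5 Braf-cko mice, against 7.56, 7.63 and 7.77 (lowest, median and highest) in the 6 Braf-flox mice. The groups did not overlap, and the change was -0.41 (SE 0.07, limma adjusted p = 0.00926). Ptges3l, named for its likeness to a prostaglandin E synthase, averaged 5.95 ± 0.16 in Braf-cko mice and 6.47 ± 0.09 in Braf-flox mice (SD, n = 5 and 6), a change of -0.51 (SE 0.08, limma adjusted p = 0.00807), and its dimmer probe changed by -0.42 (SE 0.12, adjusted p = 0.161). Tpd52l1, a relative of the tumor protein D52, was lower at both probes, with changes of -0.48 (SE 0.09, limma adjusted p = 0.0268) at the brighter and -0.53 (SE 0.09, adjusted p = 0.0102) at the dimmer one, and passed in 3 of the 11 fits (adjusted p up to 0.0922, without Braf-cko replicate 1) at the brighter. Tuft1, or tuftelin, first known from tooth enamel, changed by -0.45 (SE 0.08, limma adjusted p = 0.024) and passed in 6 of the 11 fits (adjusted p up to 0.0724, without Braf-cko replicate 1). 8030474K03Rik changed by 0.34 (SE 0.06, limma adjusted p = 0.024), which passed in 4 of the 11 fits (adjusted p up to 0.0691, without Braf-cko replicate 3).

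Since Braf-cko mice carry the Cre transgene and Braf-flox mice do not, the change of each gene was set beside its change with Cre alone, in 6 CamkII-Cre and 6 wt mice. None of the 44 genes passed for Cre alone, for which 4 of all tested probes did (0.0172%), and the changes with Cre lay between -0.15 (Fjx1) and 0.12 (Spata13). In 1 limma fit of all 23 animals, the difference between the changes passed for 11 of the 44 genes, against 43 of all tested probes (0.184%). The 44 genes were chosen by the change in Braf-cko mice, which is part of this difference. Their larger share therefore describes the choice and supports nothing. The difference was -0.85 (adjusted p = 0.000803) for Efcab6, -0.74 (adjusted p = 0.0125) for Midn, -0.74 (adjusted p = 0.002) for Zranb3 and -0.73 (adjusted p = 0.00505) for Tnfrsf12a. It was -0.71 (adjusted p = 0.000803) for Igfbp4, -0.67 (adjusted p = 0.00335) for Stac, -0.66 (adjusted p = 0.0206) for Csrnp1 and -0.57 (adjusted p = 0.00866) for Zyx. Cdca7l, at 0.54 (adjusted p = 0.0112), was the only gene among the 11 that was higher in Braf-cko mice, and Plpp6, at -0.48 (adjusted p = 0.0162), and Pramel12, at -0.43 (adjusted p = 0.0108), completed them. For the other 33 genes, the change in Braf-cko mice was not shown to differ from that with Cre alone. The 2 experiments differed in age, strain and, it appears, normalization.

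**Figure D3:**
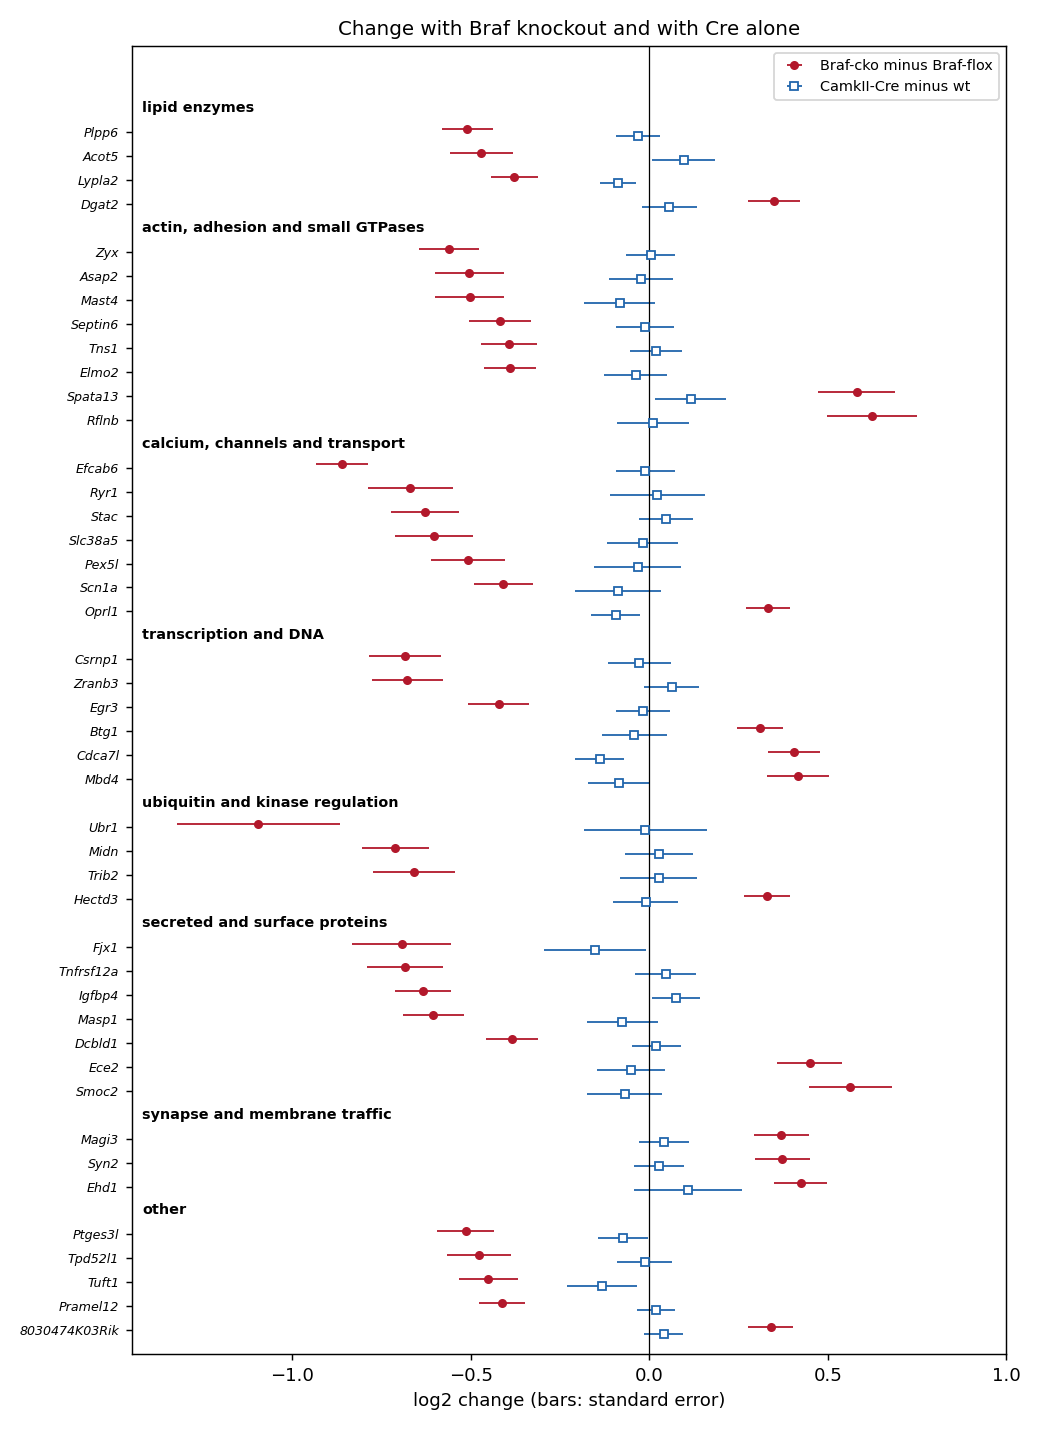
Log2 change and standard error of the 44 genes, grouped by role, in Braf-cko minus Braf-flox mice (filled circles) and in CamkII-Cre minus wt mice (open squares). The changes with Cre alone lie between -0.15 and 0.12, and those in Braf-cko mice reach -1.10 and 0.63.

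Over the functional lists, at most 3 genes of a list passed. Of 2587 genes on 44 functional lists, 1993 were tested, and 21 were lower and 12 higher. The lists were written with results of these data known, so that this share, above the 0.764% of all named genes, says nothing about the lists. A called gene was present on 28 lists and 16 held none, among them 82 splicing factors, 69 translation factors and tRNA synthetases, 61 lysosome and autophagy genes, 52 genes of glycolysis and the citric acid cycle, 44 genes of oxidative defence, 62 Wnt genes and 45 genes of TGF-beta signaling. The median change of a list lay between -0.07 (postsynaptic scaffolds) and 0.05 (SPARC family and secreted matrix modifiers). The quartiles of all named genes were -0.08 and 0.07, and 51.6% of all named genes lay below zero. A median over many genes varies less than single genes, so its place inside these quartiles says little about a list. The 12 higher list genes include Pak4, Cygb, Gpc3 and Wnk4, and the 21 lower ones Htr5b, Synj2 and Arhgap39, which are counted here but not described.

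**Figure D4:**
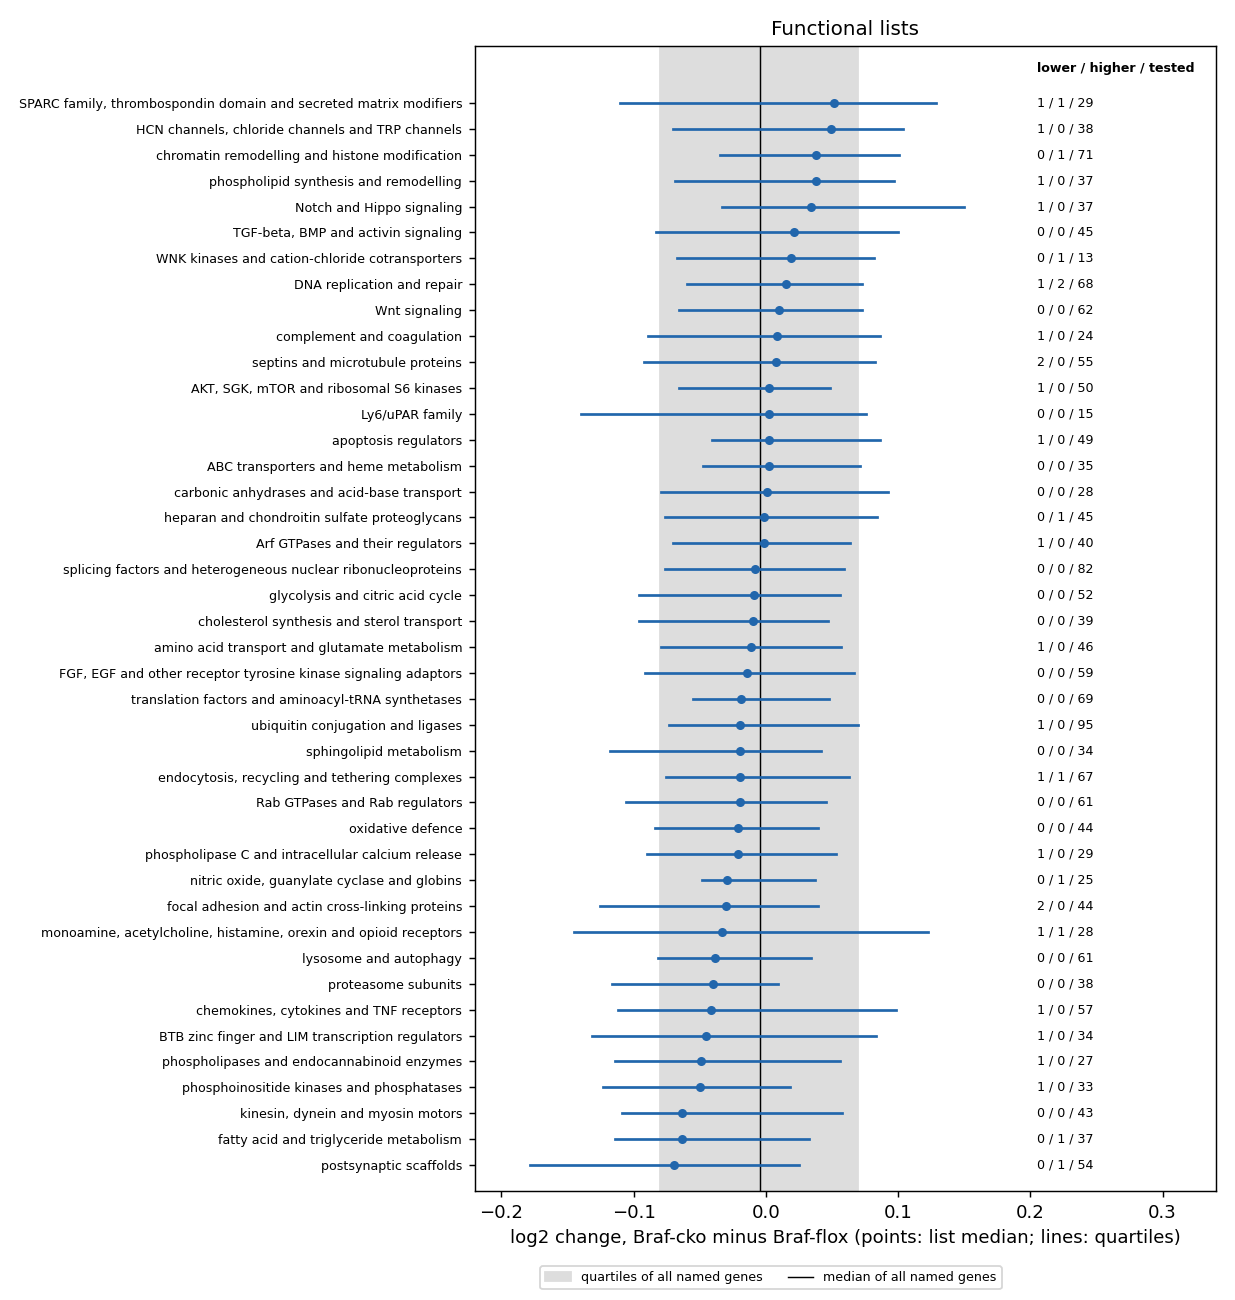
Median (point) and quartiles (line) of the log2 change, Braf-cko minus Braf-flox, over the tested genes of each of 42 of the 44 functional lists, beside the median (black line) and quartiles (grey band, -0.08 to 0.07) of all named genes. Numbers at the right give the lower, higher and tested genes; the medians run from -0.07 for postsynaptic scaffolds to 0.05 for the SPARC family. The grey band is that of single genes, which vary more than a list median.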

How the data were processed

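Total RNA of the complete hippocampus was hybridized to MouseWG-6 v1.1 BeadChips. The authors processed the arrays with beadarray, limma and vsn, with settings and versions not given in the sources used here, and deposited normalized intensity values on a linear scale. These were taken to log2 and averaged over the technical arrays of an animal. A further 72 columns of signals and detection p-values, whose names match no sample, were not used, so that background is known only through the filter on signal. The number of arrays limits the precision. Limma 3.58.1 in R 4.3.3 (lmFit and eBayes, two-sided, Benjamini-Hochberg adjustment) was fitted to the 50% of probes with the higher mean. In simulated data with normal, independent spread, the fit recovered 72% of log2 changes of 0.5 and 99% of those of 1, with 9 false calls. Smaller changes, such as many of those given here, were not simulated. Symbols came from the platform annotation for 29976 probes, 29921 of them matched to current RefSeq symbols (assembly GRCm38.p6), while 16646 probes had none and 10 several.

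Genes named are those of a functional list with a probe past an adjusted p of 0.05, and the 12 lower and 12 higher genes with the largest changes that were shifted alike in 5 of 5 Braf-cko mice and outside the gene groups that are only counted. Egr3, Dcbld1, Scn1a, Tpd52l1, Pramel12, Tuft1, Ptges3l, Acot5, Btg1 and Hectd3 were named after their values were seen. Values are of the brightest passing probe, and list medians are of the brightest tested probe. The values of 2 lists are counted but not reported here. All members and lists were chosen with earlier results of these data known. Nothing in the labels says how animals were distributed over chips. Alternatives were the filter, scaling, variance model, array weights, single technical arrays, an ordinary t-test, a replicate block and leaving out each animal.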

Additional observations from a re-analysis of the deposited data

Results flagged for a closer look

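Of 106 groups of animals (the 44 genes and 9 marker sums in each genotype), 9 held an animal whose gap to the nearest other exceeded Dixon's limit, and chance flags about 1 in 20 groups. Among Braf-cko mice, replicate 1 was lowest for Ehd1 at 8.13 (next 8.41), replicate 3 was highest for Ryr1 at 7.40 (next 6.92) and for Ptges3l at 6.23 (next 5.94), replicate 2 was lowest for Septin6 at 10.11 (next 10.47), and replicate 4 was highest for the summed choroid plexus markers at 2088 (next 795). Among Braf-flox mice, replicate 1 was lowest for Syn2 at 7.19 (next 7.39) and highest for Zyx at 11.58 (next 11.30), replicate 2 was highest for the summed microglia markers at 8950 (next 5784), and replicate 6 was highest for the choroid plexus markers at 17508 (next 1645).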

How the results depend on the processing

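The counts of 124 probes, 87 named genes and 33 list genes stayed within 1.5 times under other filters, median centring, a repeated quantile normalization, an added constant of 16, a trended or robust variance model, array weights and either technical array of Braf-cko replicate 1, and so did the list genes at the brightest probe only. The ordinary t-test with Benjamini-Hochberg adjustment, on the same values, gave 19 probes, 16 genes and 5 list genes (2437 probes at an unadjusted p of 0.05). With the replicate number as a block, 58 probes, 43 genes and 11 list genes passed, and of the 44 genes 11 did (10 lower, 1 higher). Replicate 6 exists only among Braf-flox mice, so in this fit that animal adds nothing to the change. The numbers pair nothing known: same-numbered animals correlated in their deviations at -0.14 to 0.13 over 5 pairs, and 1 of 5 Braf-cko mice was closest to its own number. Leaving out 1 animal gave 69 to 114 probes, 49 to 82 genes and 15 to 34 list genes. Probes fell to 72, 69 and 76 without Braf-cko replicate 1, 4 and 5, and to 81 without Braf-flox replicate 5. Genes fell to 53, 55, 49 and 53 without Braf-cko replicate 1, 3, 4 and 5. List genes fell to 16, 17, 15 and 20 without these and to 20, 18 and 20 without Braf-flox replicate 1, 5 and 6. The genes whose change differed from that with Cre alone numbered 11 to 13 without 1 Braf-experiment animal, and 11 with no filter. No named gene changed sign under any of these settings, but the genes were chosen by this contrast, so that this describes the choice. For 51 named genes (the 44, and 7 list genes that are only counted), 122 of 658 values under the settings other than leaving out 1 animal missed the threshold. Without 1 animal, 268 of 561 did. The cause was not tested.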
